A study of Solanum dulcamara with 18 samples.

Results

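Of 24158 assembled contigs, 58 were higher in drought than in control leaves of Solanum dulcamara both with and without caterpillars, while their flooding levels stayed close to control. Solanum dulcamara, bittersweet nightshade, is a wild relative of tomato and potato. The 58 contigs were selected on the measured values of these same libraries. Reads were expressed as CPM, the usual scaling of every library to the same total, and levels were taken as log2(CPM + 1) and averaged over the 3 libraries of a group. A contig was chosen when it had a mean of at least 2 CPM over the 18 libraries, a drought minus control difference of at least 0.6 in infested and in uninfested plants, and a flooding minus control difference between -0.4 and 0.4 in both. The water differences of these contigs are therefore a description of the choice, and calls made on them are given below without support being drawn from them. All 58 also passed the count filter of the test used for herbivory, and a limit of 300 contigs in the rule was not reached.

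The libraries came from leaves of greenhouse plants held under drought, flooding or control watering for 5 days. Watering was kept up for 2 further days, in which plants either carried feeding larvae of the beet armyworm Spodoptera exigua for 48 h (infested) or none (uninfested). The 6 groups were infested drought, infested flooding and infested control plants, and uninfested drought, uninfested flooding and uninfested control plants. Each had 3 libraries, given in the series design as biological replicates. The p-values below set differences between groups against the spread between these samples.

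Drying soil leads plants to make abscisic acid, a hormone that closes stomata and switches on genes for water retention and protection of cell structures. Flooding acts first on roots, where it limits oxygen and traps ethylene, and leaves respond to signals and to altered water supply from those roots. Chewing insects set off jasmonate signalling in leaves, which induces defence genes and shares parts of its control with abscisic acid. The deposited tables do not pair contigs with gene names, and 0 of 24158 contig IDs matched the reference gene table of the species. The 58 contigs are therefore given by length or, for a few, by ID, and no gene role is assigned to any of them.

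Libraries held 6717218 to 14063255 reads in infested plants and 7838462 to 16056241 reads in uninfested plants. Replicates were not copies of each other: their counts departed from sampling noise in each of the 18 within-group pairs (chi-square over its degrees of freedom 7.70 to 45.4). Scaling on column totals placed most stressed libraries slightly above uninfested control plants. Over the 17096 contigs of at least 2 CPM, the median drought minus control difference was 0.0697 in infested and 0.129 in uninfested plants, and the median flooding minus control difference was 0.116 in infested and 0.122 in uninfested plants. With TMM scaling, which adjusts for the makeup of each library, these medians were 0.0078 and -0.0026 for drought and 0.022 and -0.0045 for flooding, in the same order. In leaf RNA as a whole, fewer cells of a type and less RNA per cell cannot be told apart.

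Few drought-raised contigs stayed near control under flooding. The drought limit was met by 905 contigs in infested plants, by 1597 in uninfested plants and by 608 in both. Of these 608, flooding was above the band in both insect treatments for 413 contigs, below it in both for 14, within it in only 1 for 120, and above it in 1 and below it in the other for 3. The remaining 58 are the contigs described here. At the edges, the smallest drought difference inside the limit was 0.606, in a contig of 1322 bases, and the nearest outside it was 0.596, in a contig of 1519 bases. The largest flooding difference inside the band was 0.398 in size, in a contig of 986 bases, and the nearest outside was 0.411, in a contig of 1816 bases. The lowest mean level inside was 2.16 CPM, in a contig of 784 bases, and the nearest outside was 1.68 CPM, in a contig of 996 bases. When the same limits were put on TMM-scaled CPM, 58 contigs met them, of which 41 (70.7% of either set) were among the 58 chosen on column totals.

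Taken over the 58 contigs, the drought elevation was present with and without caterpillars, and the mean of infested plants was above that of uninfested plants under every water treatment, with overlapping libraries in drought. The mean level of the 58, set to 0 in uninfested control plants, was 1.52 ± 0.19 in infested drought, 0.75 ± 0.17 in infested flooding and 0.65 ± 0.20 in infested control plants on the log2(CPM + 1) scale (SD, n = 3 each). Among uninfested plants it was 1.25 ± 0.24 in drought, 0.026 ± 0.10 in flooding and 0 ± 0.078 in control plants (SD, n = 3 each). All 3 drought libraries therefore stood above all flooding and control libraries of the same insect treatment, as the choice of contigs sets. The 58 took 0.305% of the reads in infested drought, 0.203% in infested flooding and 0.180% in infested control plants, and 0.274%, 0.132% and 0.123% of the reads in uninfested drought, flooding and control plants. Within infested drought plants the libraries were at 1.46, 1.37 and 1.73. Within uninfested drought plants they were at 1.53, 1.09 and 1.15, so replicate 1 stood highest there.

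**Figure D1:**
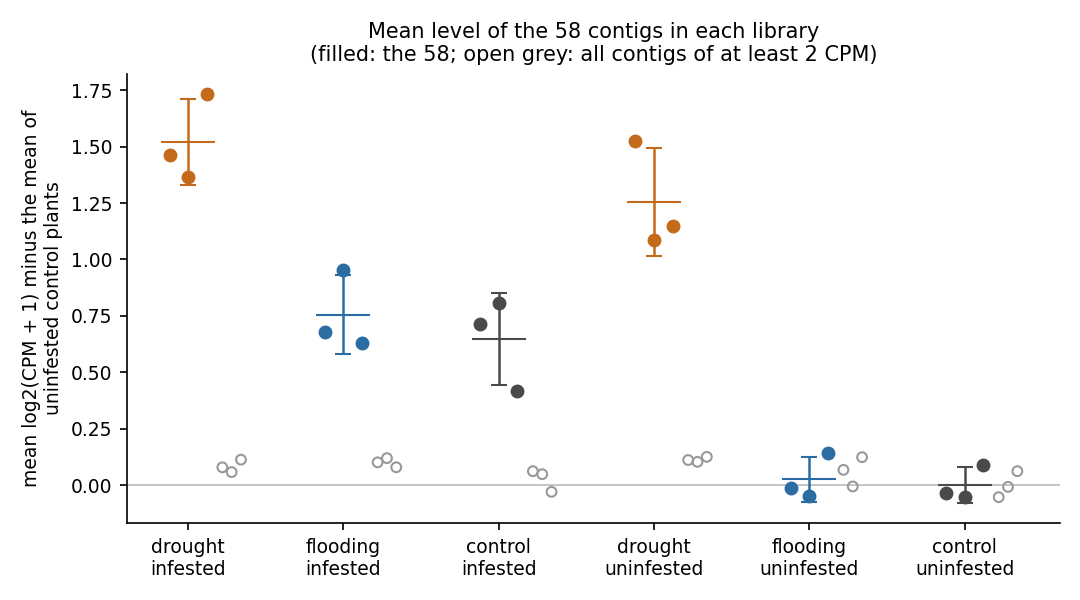
Mean log2(CPM + 1) of the 58 contigs in each library, less the mean of uninfested control plants, for the 6 groups; filled points are the 58 contigs, open grey points all 17096 contigs of at least 2 CPM, and lines are group means. Drought libraries lie between 1.09 and 1.73, infested flooding and control libraries between 0.42 and 0.95, and uninfested flooding and control libraries between -0.054 and 0.14.

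The 58 contigs were of low to moderate abundance. Their mean level ran from 2.16 to 352 CPM with a median of 9.04 CPM, against 21.1 CPM for the 17096 contigs of at least 2 CPM. Per kilobase of contig the medians were 7.37 and 14.6 CPM. In all, 32 of the 58 (55.2%) were under 10 CPM, against 30.8% of the 17096, and 4 (6.90%) reached 100 CPM, against 11.9%. Lengths ran from 516 to 7249 bases with a median of 1177.5 bases, against 1342 bases. The highest level per length belonged to a contig of 719 bases, at 489 CPM per kilobase. Only 1 of the 58, the contig of 784 bases, came from an assembly component with a second contig. That second contig, of 552 bases at 0.981 CPM, had drought differences of -0.10 in infested and 0.42 in uninfested plants and was not chosen.

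Levels of the 58 contigs varied more between replicates than is usual in these data. Within a group, the SD of a contig on the log2(CPM + 1) scale had a median between 0.243 and 0.347 for the 58 in the 6 groups, against 0.155 to 0.200 for all contigs of at least 2 CPM. The lower abundance of the 58, given above, goes with this wider spread, and its part was not tested. The deviations of the 58 from their group means also moved together to some degree. Over the 18 libraries, a contig's deviations correlated with the mean deviation of the other 57 with a median Pearson r of 0.37, and r was above 0 in 51 of the 58 (87.9%) and above 0.5 in 16 (27.6%). For the 17038 other contigs the median r with the mean of the 58 was 0.11, with 59.7% above 0 and 16.1% above 0.5. These correlations share libraries and depth and are given as a description.

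**Figure D2:**
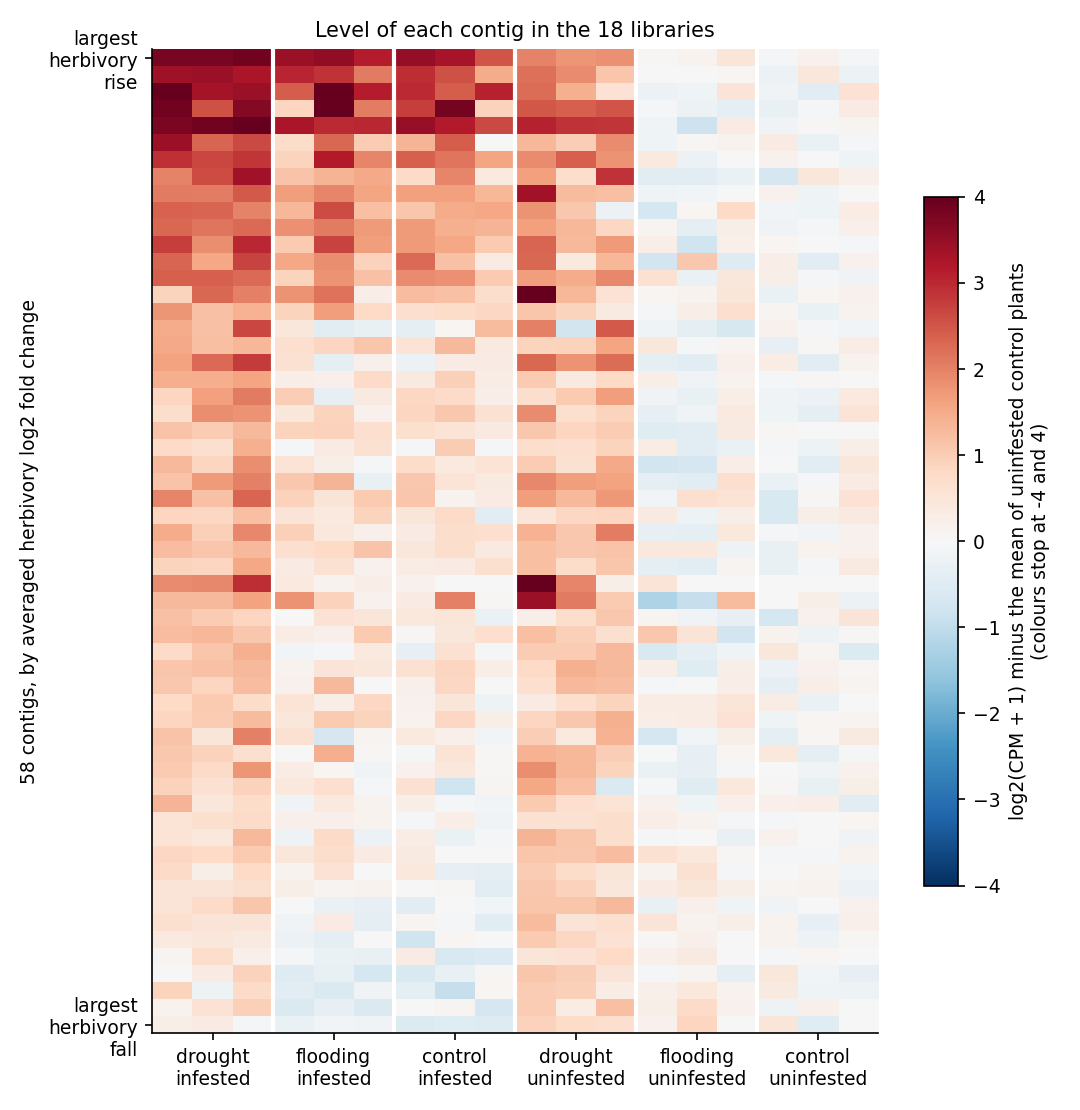
Level of each of the 58 contigs (down the page, ordered by the averaged herbivory log2 fold change) in the 18 libraries (across), as log2(CPM + 1) less the contig's mean in uninfested control plants, with colours ending at -4 and 4. Drought columns are raised along nearly the whole height, as the choice sets, while infested flooding and control columns are raised mainly in the contigs at the top.

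The drought difference was usually larger without caterpillars. Its median over the 58 was 0.78 in infested plants (0.61 to 2.21) and 1.13 in uninfested plants (0.62 to 2.95), on the log2(CPM + 1) scale. With TMM scaling the medians were 0.714 and 0.997. The 3 drought libraries were all above the 3 control libraries in both insect treatments for 41 of the 58 (70.7%), a pattern found in 11.4% of all contigs of at least 2 CPM. For 23 of the 58 (39.7%) they were above the 3 flooding libraries as well, against 0.690% of all contigs, and both shares follow from the choice. By the edgeR quasi-likelihood test with Benjamini-Hochberg adjustment over 20170 contigs, 10 of the 58 were called higher in drought than in control among infested plants, where 1.87% of all tested contigs were. Among uninfested plants 35 of the 58 were called higher, where 5.75% of all were. These calls use the values that made the choice and are given for completeness.

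The largest drought differences among contigs of at least 8 CPM whose drought and control libraries did not overlap were in comp12126_c0_seq1 and comp6570_c0_seq1. With caterpillars, comp12126_c0_seq1, of 1144 bases, had 145, 156 and 219 CPM in drought plants, 102, 83.4 and 85.8 CPM in flooding plants and 119, 94.7 and 65.3 CPM in control plants. Without caterpillars it had 90.3, 78.9 and 77.2 CPM in drought, 8.63, 5.05 and 12.6 CPM in flooding and 8.68, 10.0 and 10.6 CPM in control plants. Drought libraries were thus above flooding and control libraries in both insect treatments, and infested control plants reached about the level that drought alone gave. The drought minus control difference was 0.91 with and 2.95 without caterpillars.

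In infested plants the longer comp6570_c0_seq1, of 2664 bases, had 172, 93.1 and 206 CPM in drought, 51.7, 166 and 80.9 CPM in flooding and 83.5, 73.9 and 51.7 CPM in control plants. In uninfested plants it had 127, 61.8 and 82.1 CPM in drought, 29.8, 13.8 and 28.5 CPM in flooding and 26.3, 24.2 and 23.7 CPM in control plants. Drought libraries were above control libraries in both insect treatments. They overlapped flooding libraries with caterpillars, through flooding replicate 2.

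**Figure D3:**
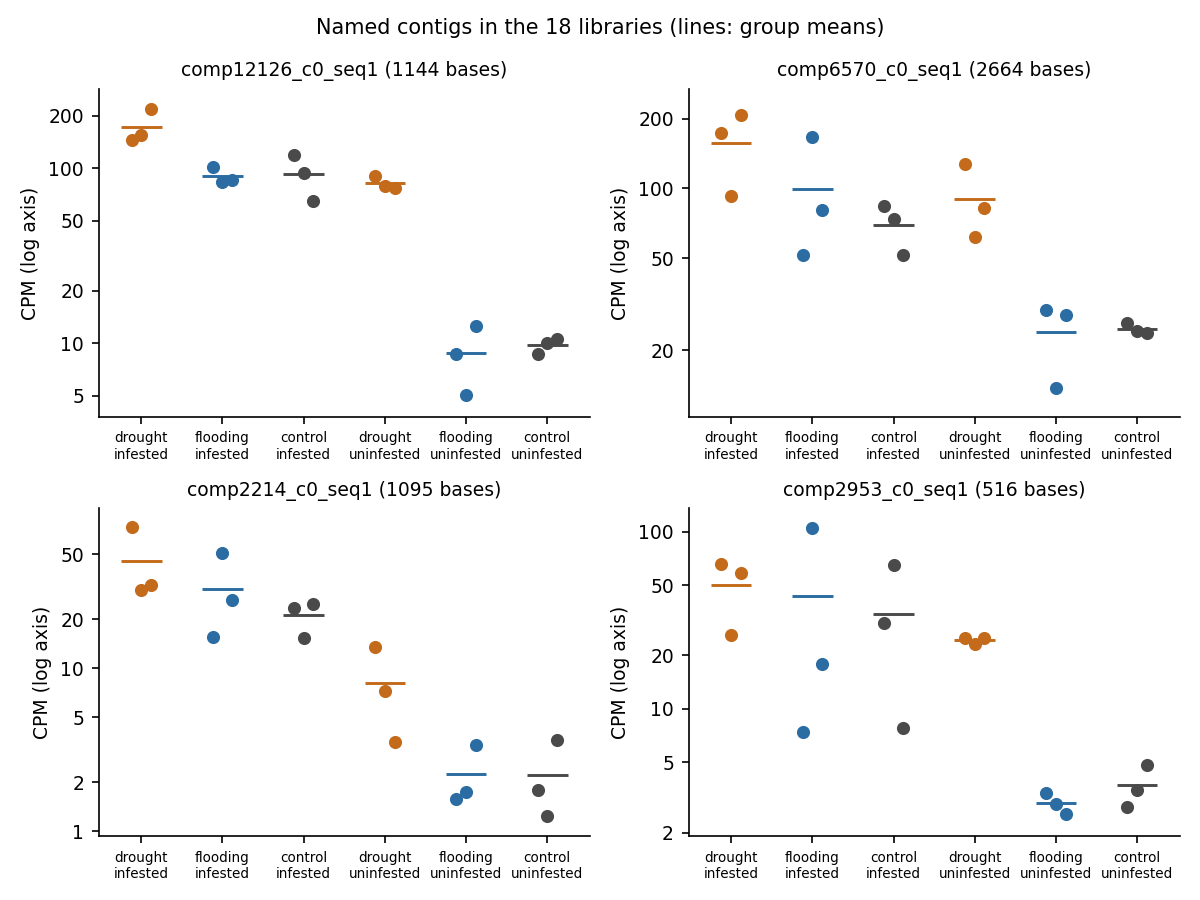
CPM of the 4 contigs named by rule in the 18 libraries, on log axes, with points for libraries and lines for group means. In all 4, infested plants average above uninfested plants of the same water treatment, and drought plants average above flooding and control plants of the same insect treatment.

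The most abundant contigs differed less. The contig of 719 bases, at 352 CPM over all libraries, had 482, 502 and 556 CPM in infested drought, 247, 323 and 307 CPM in infested flooding and 344, 408 and 267 CPM in infested control plants. In uninfested plants it had 389, 595 and 548 CPM in drought, 264, 158 and 265 CPM in flooding and 190, 254 and 233 CPM in control plants. Its drought libraries lay above the flooding and control libraries in both insect treatments. A contig of 1919 bases, at 324 CPM over all libraries, had 435, 301 and 443 CPM in infested drought plants, overlapping the 341, 201 and 199 CPM in infested control plants. In uninfested plants the same contig had 517, 429 and 361 CPM in drought and 255, 278 and 236 CPM in control plants, with no overlap. Contigs of 1137 and 7249 bases, at 285 and 168 CPM, had drought differences of 0.70 and 0.64 in infested plants. In uninfested plants these were 1.14 and 0.98. A contig of 1629 bases was less abundant, at 79.4 CPM. It averaged 102 ± 7.7 CPM in infested drought plants against 65.9 ± 9.9 CPM in infested control plants. In uninfested plants it averaged 102 ± 3.8 CPM in drought and 64.2 ± 3.8 CPM in control (SD, n = 3 each). Its drought libraries were clear of its control libraries in both insect treatments, while infested and uninfested libraries overlapped.

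In a few contigs a single library set most of the size of the drought difference. A contig of 1470 bases had 2.73, 2.82 and 6.82 CPM in infested drought plants, against 0.115, 0 and 0 CPM in infested control plants. Its uninfested drought plants had 31.0, 2.87 and 0.182 CPM, and there were no reads in the 3 uninfested control libraries. A contig of 827 bases had 29.5, 2.39 and 0.999 CPM in uninfested drought plants and 0.128, 0.436 and 0.519 CPM in uninfested control plants. Both were highest in uninfested drought replicate 1, the library with the highest mean over the 58 within its group. Without that library their drought minus control differences in uninfested plants were 1.10 and 0.95, still above the limit of 0.6, against 2.40 and 2.13 with it. Their mean levels over the remaining 17 libraries were 0.977 and 1.92 CPM, under the minimum of 2 CPM. Contigs of 917, 1605 and 1320 bases fell below the limit of 0.6 without the same library. Their differences were 0.29, 0.43 and 0.58, against 0.71, 0.89 and 0.74 with it. The rest of the 58 stayed above that limit.

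Membership depended on single libraries. With any 1 of the 18 libraries left out, between 44 contigs (without infested drought replicate 3) and 83 contigs (without infested flooding replicate 2) met the rule. Of the 58, between 28 (without infested control replicate 3) and 57 (without uninfested drought replicate 2) were among them. Only 3 of the 58 met the rule in all 18 of these repeats, and their drought minus control differences in uninfested plants were 1.17 to 1.51. The most abundant of the 3, a contig of 1864 bases, had 48.4, 58.1 and 74.1 CPM in infested drought, 34.1, 27.8 and 26.8 CPM in infested flooding and 25.2, 33.9 and 31.1 CPM in infested control plants. Without caterpillars it had 74.8, 73.4 and 85.1 CPM in drought, 27.6, 38.7 and 29.7 CPM in flooding and 30.4, 33.4 and 38.2 CPM in control plants. Its drought libraries were above all others of the same insect treatment. The other contigs of this group, of 643 and 848 bases, averaged 9.08 and 4.25 CPM.

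To read the pattern in libraries that did not make the choice, contigs were chosen by the same rule on 12 libraries, with 1 replicate number left out of all 6 groups, and their differences were taken in the 6 libraries left out. This chose 41 contigs without replicate 1, 100 without replicate 2 and 25 without replicate 3, of which 23, 39 and 12 were among the 58. In the left-out libraries of infested plants, the median drought minus control difference was 0.50, 0.40 and 1.23 for replicates 1, 2 and 3, and 34 of 41, 84 of 100 and 25 of 25 chosen contigs were above 0. The shares over all contigs of at least 2 CPM were 52.3%, 53.1% and 65.6%. In uninfested plants the median was 1.10, 0.96 and 1.04, with 97.6%, 99.0% and 96.0% of the chosen contigs above 0, against 62.6%, 62.7% and 59.3% of all. In the libraries used for the choice, the medians were 0.75, 0.83 and 0.84 in infested plants and 0.92, 1.09 and 1.28 in uninfested plants. The left-out infested libraries of replicates 1 and 2 thus showed smaller drought differences than the libraries used, and 29.3% and 31% of the chosen contigs reached the limit of 0.6 there, against 8.54% and 5.84% of all. In replicate 3 the limit was reached by 84% of the chosen contigs in infested plants, against 12.6% of all. Infested control replicate 3 had the lowest mean over the 58 in its group, 0.42 against 0.71 and 0.81. Infested drought replicate 3 had the highest in its group, at 1.73. Drought and flooding differences of infested replicate 3 are both taken against that 1 control library, and its part was not tested.

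The closeness of flooding to control did not carry over beyond the shares of all contigs in infested plants. In infested plants the median flooding minus control difference in left-out libraries was 0.12, 0.38 and 0.64, with 56.1%, 37.0% and 32% of the chosen contigs within the band, against 64.2%, 56.4% and 63.9% of all contigs of at least 2 CPM. In uninfested plants it was -0.0081, -0.065 and 0.18, with 68.3%, 61.0% and 76.0% within the band, against 59.2%, 68.0% and 62.0% of all. Shares within the band were thus below those of all contigs in infested plants for each replicate number, and above or below them in uninfested plants. All 4 limits were met in the left-out libraries by 3 of 41, 3 of 100 and 2 of 25 chosen contigs. Those shares were 7.32%, 3.00% and 8%, against 0.345%, 0.129% and 0.380% of all contigs of at least 2 CPM. The left-out drought library was above the left-out flooding library in both insect treatments for 33 of 41 (80.5%), 45 of 100 and 23 of 25 (92%) contigs, against 23.6%, 21.3% and 28% of all. With 1 library per group, these differences hold the full spread between single samples.

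**Figure D4:**
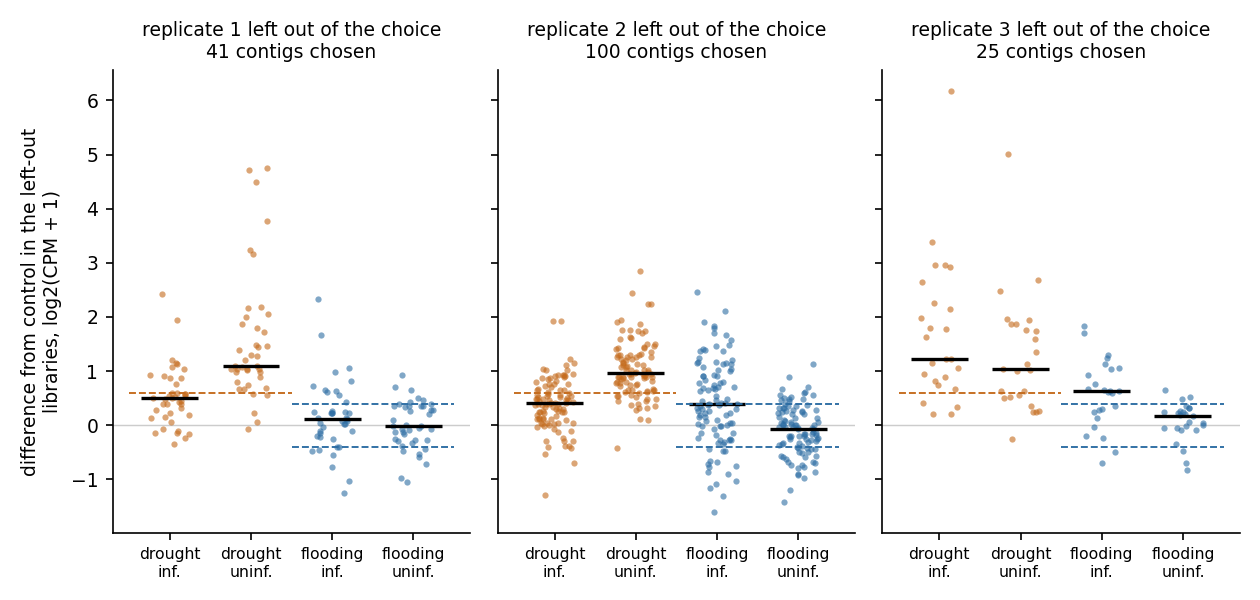
Differences from control in log2(CPM + 1), in the libraries of 1 replicate number, for contigs chosen by the same rule on the other 12 libraries; each point is a contig, 1 panel per replicate number, with black lines at medians and dashed lines at the limits of the rule (0.6 for drought, -0.4 and 0.4 for flooding). Drought differences of uninfested plants lie almost wholly above 0 in all 3 panels, while flooding differences of infested plants spread widely, with medians of 0.12, 0.38 and 0.64.

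Flooding differences of the 58 were kept small by the band of the rule. On the log2(CPM + 1) scale they ran from -0.40 to 0.39 with a median of 0.14 in infested plants. In uninfested plants they ran from -0.40 to 0.38 with a median of 0.014. By edgeR, 0 of the 58 were called in either direction for flooding minus control in infested or in uninfested plants, and 0 had an unadjusted p under 0.05 in either, with 0 called by DESeq2 too. Over all tested contigs 15.4% were called in infested and 15.9% in uninfested plants. The choice fixed the absence of calls, and nothing is read from it.

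Herbivory was not used in choosing the contigs, and many of the 58 rose in infested plants. Averaged over the 3 water treatments, 25 of the 58 (43.1%) were called higher in infested than in uninfested plants and 2 (3.45%) lower by the edgeR quasi-likelihood test. Of all 20170 tested contigs, 16.0% were called higher and 13.4% lower. The median log2 fold change was 0.47 over the 58 and -0.013 over all tested contigs. Log2 fold changes were above 0 in 48 of the 58 and in 48.1% of all tested contigs. With libraries scaled on column totals alone, 20 of the 58 were called higher and 2 lower, against 13.0% and 17.7% of all contigs. The tested contigs include some under the 2 CPM asked of the 58. With a minimum count of 30, 25 of the 58 were called higher and 2 lower, against 17.7% and 15.5% of all contigs tested. The level limit was reached only through infested libraries by 4 of the 58, which averaged under 2 CPM over the 9 uninfested libraries, and 3 of these were called higher, against 22 of the other 54. Column numbers in the labels run separately for infested and for uninfested libraries, with no meaning given, so a batch along those numbers and herbivory cannot be told apart.

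Infested plants were above uninfested plants with no overlap of libraries in all 3 water treatments for 10 of the 58 (17.2%), against 4.59% of all contigs of at least 2 CPM. Within 1 water treatment, infested libraries were all above uninfested libraries for 12 of the 58 (20.7%) in drought, 20 (34.5%) in flooding and 23 (39.7%) in control plants, against 8.65%, 13.2% and 15.7% of all. They were all below for 3 (5.17%), 4 (6.90%) and 0 of the 58, against 16.3%, 17.9% and 18.7% of all. Of the 25 called higher, 14 were at least 2-fold higher and 23 had a positive fold change in each water treatment. The same shares among all contigs called higher were not counted. Of these 25, 20 kept the call under all 24 alternative settings tried for this comparison, and none changed direction.

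The rule named comp2214_c0_seq1 and comp2953_c0_seq1 as the largest rises among contigs of at least 8 CPM. With 1095 bases, comp2214_c0_seq1 had 73.9, 30.1 and 32.6 CPM in infested drought plants and 13.5, 7.26 and 3.54 CPM in uninfested drought plants. It had 15.5, 50.8 and 26.1 CPM in infested flooding plants and 1.58, 1.74 and 3.37 CPM in uninfested flooding plants. Control plants had 23.3, 15.3 and 25 CPM when infested and 1.79, 1.25 and 3.63 CPM when uninfested. Infested libraries were above uninfested ones in every water treatment. As an averaged log2 fold change this was 3.21 ± 0.33 (SE), with an edgeR adjusted p of 6.5e-06, and the contig was called in each water treatment.

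The shortest of the 58, comp2953_c0_seq1 with 516 bases, had 65.5, 26 and 58.4 CPM in infested drought plants and 25.1, 23.3 and 25.2 CPM in uninfested drought plants. In flooding it had 7.44, 104 and 17.9 CPM with caterpillars and 3.35, 2.92 and 2.55 CPM without. In control plants it had 30.7, 65.1 and 7.77 CPM with caterpillars and 2.81, 3.49 and 4.80 CPM without. Infested libraries were above uninfested ones throughout, narrowly in drought, and infested flooding and control libraries varied several-fold among themselves. The averaged log2 fold change was 2.73 ± 0.48 (SE, edgeR adjusted p = 6.5e-04). In drought plants alone it was 1.10 ± 0.74 and did not pass (edgeR adjusted p = 0.561).

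The contigs named for drought also rose with caterpillars. For comp12126_c0_seq1 the averaged log2 fold change was 2.60 ± 0.14 (SE, edgeR adjusted p = 1.3e-08), and infested libraries were above uninfested ones in all 3 water treatments. By water treatment it was 1.15 ± 0.22 in drought, 3.42 ± 0.25 in flooding and 3.24 ± 0.25 in control plants, each called. For comp6570_c0_seq1 the averaged log2 fold change was 1.49 ± 0.24 (SE, edgeR adjusted p = 2.9e-04). It was called in flooding (2.10 ± 0.42) and control plants (1.49 ± 0.41). In drought plants it was 0.87 ± 0.40 with an edgeR adjusted p of 0.324.

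Further contigs are described by length. Those of 908 and 674 bases were among the 4 that reached the level limit only through infested libraries. Their rises are therefore a description. A contig of 908 bases had 13.6, 13.7 and 14.3 CPM in infested drought plants and 3.21, 2.63 and 2.72 CPM in uninfested drought plants. In control plants it had 11.2, 9.38 and 5.01 CPM with caterpillars, against 3 reads in all over the 3 uninfested control libraries, so no fold is given. A contig of 674 bases had 11.3, 11.8 and 10.2 CPM in infested drought plants and 4.36, 3.35 and 1.54 CPM in uninfested drought plants. The fitted averaged log2 fold change of that contig was 3.79 ± 0.39 (SE). All 10 of its reads in uninfested control plants came from replicate 2, and without that library, which leaves that group at 0, the fitted value was 5.31, so no fold is given. Among the abundant contigs the rises were smaller. The longest of the 58, at 7249 bases, had 199, 205 and 173 CPM in infested flooding plants and 76.6, 78.7 and 138 CPM in uninfested flooding plants, with an averaged fold of 1.52. For the contig of 719 bases the averaged value was 0.36 ± 0.11 on the log2 scale (SE), with an edgeR adjusted p of 0.022. For a contig of 1137 bases, at 285 CPM, it was 0.45 ± 0.10 (SE), with an edgeR adjusted p of 0.0036. With libraries scaled on column totals alone the call of the contig of 719 bases was lost (edgeR adjusted p = 0.056).

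Both contigs called lower were under 8 CPM, so no contig met the naming rule for falls, and they are named here after their values were seen. For comp23851_c0_seq1, of 1493 bases, infested plants had 5.28, 5.64 and 4.09 CPM in drought, 3.42, 3.90 and 3.84 CPM in flooding and 2.65, 2.86 and 2.75 CPM in control. Uninfested plants had 9.03, 7.90 and 7.54 CPM in drought, 5.02, 8.68 and 4.28 CPM in flooding and 6.51, 2.80 and 4.35 CPM in control. Infested libraries were all below uninfested ones in drought and flooding, and overlapped them in control plants. The averaged log2 fold change was -0.65 ± 0.18 (SE, edgeR adjusted p = 0.011). For comp6448_c0_seq1, of 2156 bases, it was -0.60 ± 0.21 (SE, edgeR adjusted p = 0.041), and the call was lost under 12 of the 24 alternative settings, of which 11 left out a single library.

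Read within each water treatment, the number of the 58 called higher was lowest in drought plants, as it was over all tested contigs. For the 58 this order is a description, since the drought and control levels of each insect treatment entered the choice. In drought plants 5 of the 58 (8.62%) were called higher by edgeR, against 2.87% of all tested contigs. In flooding plants 18 (31.0%) were, against 9.58%, and in control plants 13 (22.4%) were, against 6.61%. Called lower were 1 in flooding plants, where 5.79% of all contigs were. None was called lower by edgeR in drought plants, where 0.342% of all contigs were, or in control plants, where 3.92% were. In each of these, 1 of the 58 had an unadjusted p under 0.05 in that direction and DESeq2 called 0. Median log2 fold changes over the 58 were 0.25 in drought, 0.68 in flooding and 0.57 in control plants, and those over all tested contigs were 0.0030, 0.0077 and -0.021. Without infested drought replicate 3 the drought median was 0.038.

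The calls overlapped between water treatments. Of the 58, 4 were called higher in all 3 water treatments, 9 in flooding and control plants only, 5 in flooding plants alone, 1 in drought plants alone and 39 in none. These patterns were not counted over all tested contigs, so the overlap is a description and no trait of the 58 is read from it. Single libraries bore on these counts and on the shares of all contigs called. The count of 5 in drought plants was 2 without uninfested drought replicate 2 and 3 without infested drought replicate 1. Of all contigs, 1.02% and 0.814% were then called higher, against 2.87% with all libraries. The count of 18 in flooding plants was 11 without infested flooding replicate 2, where the share of all contigs was 7.04%, against 9.58%. The count of 13 in control plants was 8 without infested control replicate 1, infested control replicate 2 or uninfested control replicate 1. It was 7 without uninfested control replicate 2. The shares of all contigs called higher were 4.54%, 4.38%, 3.73% and 3.48% in that order, against 6.61%. On column totals alone, 4 rose in drought plants and 16 rose and 1 fell in flooding plants, where 1.81% and 0.704% of all contigs were called higher and lower in drought and 8.11% and 8.30% in flooding.

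**Figure D5:**
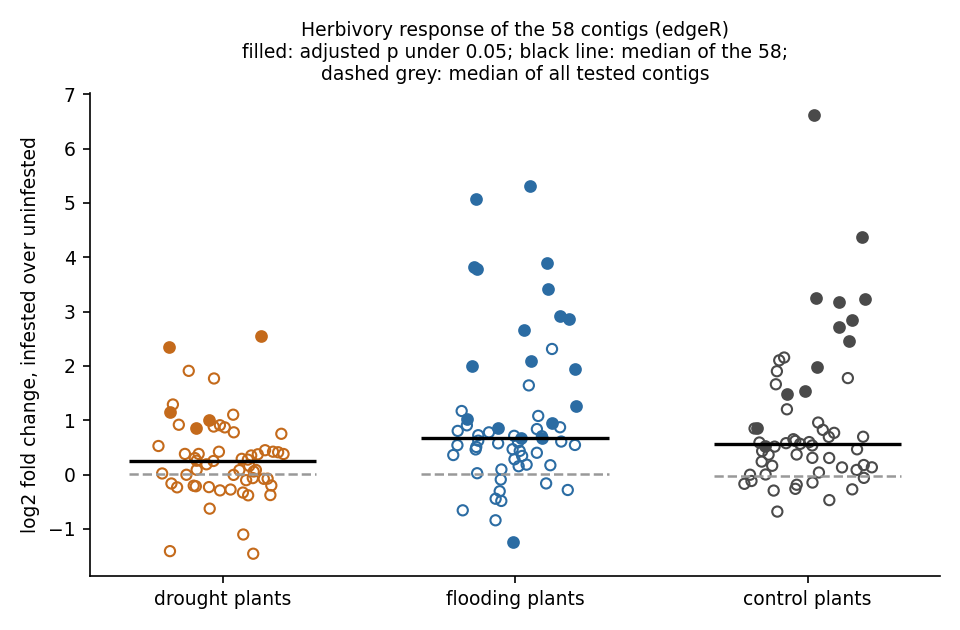
Log2 fold change, infested over uninfested, of the 58 contigs in drought, flooding and control plants (edgeR, TMM scaling); each point is a contig, filled where the adjusted p is under 0.05, with a black line at the median of the 58 and a dashed grey line at the median of all 20170 tested contigs. Medians of the 58 are 0.25, 0.68 and 0.57, all above the grey lines near 0.

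Among the 25 contigs called higher, 24 had their smallest fold change in drought plants, with medians of 0.85 in drought, 1.64 in flooding and 1.53 in control plants. Of all 3230 tested contigs called higher, 2100 (65.0%) had theirs there, with medians of 0.43, 0.69 and 0.58. This order is a description, since the level of uninfested drought plants entered the choice of the contigs. Where these 25 stood highest was infested drought plants, at a mean of 2.18 ± 0.17 above uninfested control plants on the log2(CPM + 1) scale. The rule placed infested drought plants above infested flooding and control plants, and the herbivory call picked contigs higher in infested plants. That position is therefore a description too. Infested flooding plants were at 1.44 ± 0.32, infested control plants at 1.34 ± 0.33 and uninfested drought plants at 1.43 ± 0.22 (SD, n = 3 each), so uninfested drought plants overlapped infested plants of the other water treatments. Uninfested flooding plants were at -0.011 ± 0.19.

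The difference between water treatments was tested as an interaction, the herbivory log2 fold change in drought plants less that in control plants. By edgeR, 0 of the 58 and 0 of all 20170 contigs (0%) were called. At an unadjusted p under 0.05 there were 7 of the 58, all with a smaller fold change in drought plants, and 1301 of all contigs. DESeq2 called 2 of the 58 and 29 of all. The value for comp12126_c0_seq1 was -2.09 ± 0.33 (SE, edgeR adjusted p = 0.127). This contrast contains the water differences of the rule, so the counts are a description.

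The other 31 contigs were not called for averaged herbivory, and their mean levels were high in drought plants with or without caterpillars. Their mean level was 1.06 ± 0.22 in infested drought, 0.27 ± 0.11 in infested flooding and 0.16 ± 0.11 in infested control plants, against uninfested control plants at 0 (SD, n = 3 each). Uninfested drought plants were at 1.14 ± 0.27 and uninfested flooding plants at 0.034 ± 0.058. Of the 31, 13 had a positive and 7 a negative fold change in every water treatment. The contigs of 1919, 1629 and 1864 bases are among them, with averaged log2 fold changes of -0.036 ± 0.14, 0.073 ± 0.062 and -0.18 ± 0.097 (SE). The 3 contigs that met the rule whichever library was left out were all among the 31. The 25 called higher and the 31 not called had median lengths of 1211 and 1004 bases and median levels of 9.99 and 8.61 CPM.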

How the data were processed

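Leaf RNA was sequenced with standard Illumina libraries, per the labels' protocols. The authors deposited raw counts of reads per contig and a second table of normalized signal, proportional within each library to the raw count over contig length on its values and used here only to check that it holds all 58 contigs. The submitters' processing notes name Bowtie 0.12.7 and DESeq. How contigs were assembled, which program counted reads and whether strand was used are not given in the sources used here, so near-identical or overlapping transcripts may share reads.

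Counts were tested with edgeR 4.0.16 in R 4.3.3. Contigs passed filterByExpr (minimum count 10, minimum total 15), leaving 20170. Libraries were scaled with TMM (factors 0.910 to 1.09), and 1 robust quasi-likelihood model with 6 group means was fitted to 18 libraries, with 12 residual degrees of freedom and a common biological coefficient of variation of 18.6%. A contig was called at a Benjamini-Hochberg adjusted p under 0.05 over all 20170 contigs. All adjusted p-values in the text are from this edgeR test unless DESeq2 (1.42.0) is named. Each SE is the size of the log2 fold change over the square root of its F statistic. Printed CPM values are on column totals and fold changes are on TMM scaling. On simulated counts for averaged herbivory over 20170 contigs, the test called 93 of 100 contigs changed 2-fold and 100 of 100 changed 4-fold. False calls numbered 12. The chosen contigs were less abundant and varied more between replicates than is usual in these data. Whether these rates hold for the chosen contigs was not tested, and nothing about those contigs is read from the simulation.

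The contigs, the rule and the comparisons were chosen with earlier results of these data known. Named by rule were, among contigs of at least 8 CPM, the 2 with the largest mean drought difference whose drought and control libraries did not overlap, and the 2 largest rises and 2 largest falls with herbivory that had the same sign in every water treatment. Alternatives were other scalings, other count filters, DESeq2, a replicate block, fits on the compared libraries only, and omission of each library.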

Additional observations from a re-analysis of the deposited data

How the results depend on the processing

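The 25 contigs called higher for averaged herbivory were 20 to 27 under the alternatives tried, and the 4 contigs named by rule kept their direction and their call in all of them. Of the 2 called lower, 1 remained a call with a replicate block, and 1 to 3 were called with 1 library left out. When only the compared libraries were fitted, rises numbered 3 in drought, 11 in flooding and 17 in control plants, and falls 0 in flooding plants. The shares of all contigs were 1.6%, 5.06% and 8.31% for these rises and 1.27% for the falls. With DESeq2, rises numbered 6, 18 and 18 in the same order, against 3.91%, 10.4% and 8.04% of all contigs. For contigs chosen on TMM-scaled CPM they numbered 8, 21 and 15. With 1 library left out, rises ran from 2 to 6 in drought, 11 to 19 in flooding and 7 to 15 in control plants. Falls in flooding plants ran from 0 to 2. The shares of all contigs called higher ran from 0.814% to 3.14%, 5.48% to 10.9% and 3.48% to 7.66%. For falls in flooding plants the shares ran from 1.75% to 10.9%. The cause of these shifts was not tested.

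Replicate numbers were not treated as pairs in the main model. Correlations of deviations between infested and uninfested libraries of the same number and water treatment ran from -0.42 to 0.056. Such low values do not exclude pairing by number. With the replicate block, averaged herbivory gave 25 rises, and rises numbered 5 in drought, 17 in flooding and 10 in control plants. Of all contigs, 15.6% were called higher for averaged herbivory, and 2.64%, 9.1% and 6.34% in these water treatments. At 3 libraries a group and levels mostly under 10 CPM, differences near the limits of the rule are within the spread between libraries.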
